A study of Mus musculus with 4 samples.

Results

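Stefin A proteins are small inhibitors of cysteine proteases that act inside the cell and belong to the cystatin superfamily. They bind cathepsins, the papain-like proteases of lysosomes. In the mouse the family has expanded into a cluster of neighbouring genes on chromosome 16, and several of its members are abundant in granulocytes of the marrow. Neutrophils mature there from precursors that make primary granule proteins such as elastase, through cells that make secondary granule proteins such as lactoferrin, to segmented cells ready for release.

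The 4 stefin A genes described here are Stfa1, Stfa2, Stfa2l1 and Stfa3, which are 4 of 31053 features counted. They were chosen by the low UMI level of Stfa1 in mutant against wild-type neutrophils of these libraries, so the genotype values below are a description and carry no test. Neutrophils were taken as barcodes with 500 or more genes in which S100a8 and S100a9, the subunits of calprotectin, together reached 300 or more per 10000 UMIs. This left 2938 of 32289 barcodes with 500 or more genes, out of 39898 in all. The gate held 1594 barcodes of the mutant and 554 of the wild type at day 19, and 512 of the mutant and 278 of the wild type at day 13. Just inside the gate, between 300 and 500 per 10000, were 65 mutant and 19 wild-type barcodes at day 19 and 41 mutant and 16 wild-type barcodes at day 13. Just outside it, between 100 and 300, were 102 mutant and 41 wild-type barcodes at day 19 and 49 mutant and 22 wild-type barcodes at day 13.

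Cells came from epiphyses of tibia and femur, the bone ends with cartilage and marrow. Mutant mice had the genotype Sox9fl:fl AcanCreERT2/+, with floxed Sox9 and a tamoxifen-dependent Cre driven from Acan, which is active in cartilage, while the others were labelled wild type with no allele named. The 4 groups were mutant and wild type at postnatal day 19 and mutant and wild type at postnatal day 13, with 1 library each. The sources used here do not give strain, litter, mice per library or tamoxifen schedule. A difference between 2 groups is therefore a difference between 2 libraries with no replicate check, and intervals below cover counting error only.

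Libraries held 70507107 to 76080803 UMIs, and the gated barcodes held 6665599 in the mutant and 4034075 in the wild type at day 19, and 1994242 in the mutant and 900880 in the wild type at day 13. Pairs of libraries shared 19 to 44 barcode sequences, and 0 of these were gated in both. Levels below are CPM, the UMIs of a gene per 1000000 UMIs of the barcodes summed. Sox9 in barcodes of the chondrocyte gate was at 185 CPM in the mutant and 458 CPM in the wild type at day 19, and at 214 CPM in the mutant and 358 CPM in the wild type at day 13. The gated cells carried neutrophil markers in every library, for example Ngp at 16490 to 25920 CPM and Camp at 19272 to 28562 CPM, against at most 34.1 CPM for Ngp and Camp outside the gate. The wild-type day 19 library stood apart in Ltf, which encodes lactoferrin, at 85.3 CPM against 3084 to 3693 CPM in the other 3. The median summed level of chondrocyte markers in gated cells was 19.7 per 10000 UMIs in the mutant and 14.4 in the wild type at day 19, and 37.4 in the mutant and 95.04 in the wild type at day 13. The median for erythroid markers was 36.0 in the mutant and 64.9 in the wild type at day 19, and 10.8 in the mutant and 14.7 in the wild type at day 13, and that for B cell, T and NK cell, macrophage and endothelial markers was 0 in all 4 libraries. The part of these library differences in the results below was not tested.

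The members lie within 298582 bases of chromosome 16 (GRCm38, GENCODE M21), in the order Stfa2l1 (chr16:36156811-36161953, plus strand), Stfa1 (chr16:36276951-36285373, plus strand), Stfa2 (chr16:36403992-36408457, minus strand) and Stfa3 (chr16:36450537-36455392, minus strand). The 150 bases before each RefSeq start are shown because Stfa1 stood apart from the other 3 members in level, while its promoter resembles theirs. Capitals mark the stretches of 13 bases that are the longest held by all 4 promoters. The promoter of 2010005H15Rik (named Csta2 in RefSeq), the neighbour that followed Stfa1, is shown for contrast. All are GRCm38.p6, 5′ to 3′ on the strand of the gene. The RefSeq and GENCODE starts differ for Stfa1, Stfa2 and 2010005H15Rik. The window of Stfa1 lies wholly inside its GENCODE gene, and those of Stfa2 and 2010005H15Rik lie partly inside theirs.
Stfa1, chr16:36276998-36277147, plus: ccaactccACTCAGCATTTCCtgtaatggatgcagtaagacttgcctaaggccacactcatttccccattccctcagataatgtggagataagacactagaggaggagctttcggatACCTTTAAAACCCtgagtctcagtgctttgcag
Stfa2, chr16:36408364-36408513, minus: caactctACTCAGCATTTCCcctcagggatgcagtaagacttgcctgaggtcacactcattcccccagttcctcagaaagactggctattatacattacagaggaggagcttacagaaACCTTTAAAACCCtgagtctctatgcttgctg
Stfa2l1, chr16:36156661-36156810, plus: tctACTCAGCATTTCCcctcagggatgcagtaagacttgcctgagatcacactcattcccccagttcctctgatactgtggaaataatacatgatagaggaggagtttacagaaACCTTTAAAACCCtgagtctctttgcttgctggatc
Stfa3, chr16:36455393-36455542, minus: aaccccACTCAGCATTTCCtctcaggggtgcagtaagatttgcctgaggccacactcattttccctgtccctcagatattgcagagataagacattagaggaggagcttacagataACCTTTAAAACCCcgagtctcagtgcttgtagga
2010005H15Rik, chr16:36221412-36221561, plus: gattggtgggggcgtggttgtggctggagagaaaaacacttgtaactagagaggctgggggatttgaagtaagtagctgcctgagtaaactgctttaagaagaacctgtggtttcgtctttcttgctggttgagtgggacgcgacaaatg

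Identity of these windows over all alignment columns, gaps included, was 80.9% between Stfa1 and Stfa2, 78.1% between Stfa1 and Stfa2l1, 84.3% between Stfa1 and Stfa3, and 86.4% between Stfa2 and Stfa2l1. It was 45.3% between Stfa1 and 2010005H15Rik. The stretch ACCTTTAAAACCC began 32 to 36 bases before the start of each member and occurred on either strand of 9 of 32851 RefSeq promoters of 300 bases. The stretch ACTCAGCATTTCC began 142 to 147 bases before the start and occurred in 10 of them. Every promoter with either stretch belonged to a stefin A or cystatin gene by its RefSeq symbol, or to Gm7260 or Gm40403. Each member's window held 1 match to TTTAAA, which occurred on either strand in 6.75% of all 150-base windows, and 0 matches to the TATA box TATAAA, found in 7.57%. The pattern TTNNGNAA, a loose form of the site of C/EBP factors, occurred once in Stfa1, Stfa2 and Stfa2l1 and not in Stfa3, against 22.8% of all windows. AGGAAG, a core that ETS factors such as PU.1 can bind, had 0 matches in the 4 windows and occurred in 19.7% of all.

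Stfa1 was nearly absent from mutant neutrophils and was among the abundant transcripts of wild-type neutrophils. It had 30 UMIs, or 4.50 CPM (95% interval 3.04 to 6.43), in the mutant and 5481 UMIs, or 1359 CPM (1323 to 1395), in the wild type at day 19. At day 13 it had 292 UMIs, or 146 CPM (130 to 164), in the mutant and 10131 UMIs, or 11246 CPM (11028 to 11467), in the wild type. Both mutant libraries lay below both wild-type libraries. The log2 ratio of mutant to wild type was -8.24 (-8.81 to -7.72) at day 19, which is 302-fold lower, and -6.26 (-6.44 to -6.10) at day 13, which is 76.8-fold lower. Stfa1 was the only member at least 2-fold lower in the mutant at both ages, as were 0.777% of 9647 genes tested. Ranked by the smaller of its log2 differences at the 2 ages, it was number 2 of these genes.

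The other members showed no such difference. Stfa2 was at 1037 CPM in the mutant and 420 CPM in the wild type at day 19, and at 3639 CPM in the mutant and 4177 CPM in the wild type at day 13. Stfa2l1 was at 1113 CPM in the mutant and 328 CPM in the wild type at day 19, and at 3075 CPM in the mutant and 3618 CPM in the wild type at day 13. Stfa3 was at 507 CPM in the mutant and 257 CPM in the wild type at day 19, and at 2431 CPM in the mutant and 2524 CPM in the wild type at day 13. All 3 were higher in the mutant at day 19 and within 1.18-fold of the wild type at day 13. Their log2 ratios at day 19 were 1.31 (1.23 to 1.38) for Stfa2, 1.76 (1.68 to 1.85) for Stfa2l1 and 0.98 (0.88 to 1.08) for Stfa3. Stfa2 and Stfa2l1 were at least 2-fold higher at that age, as were 12.9% of the genes tested. The size changed with the barcodes kept. With a minimum of 1000 genes the day 19 ratios were 0.65 for Stfa2, 1.38 for Stfa2l1 and 0.47 for Stfa3. With equal weight for the 3 maturation ranges defined below they were 0.67 for Stfa2, 1.20 for Stfa2l1 and 0.62 for Stfa3, so Stfa2 was under 2-fold in both settings. With all gated barcodes at day 13 the ratios were -0.20 (-0.26 to -0.14) for Stfa2, -0.23 (-0.30 to -0.17) for Stfa2l1 and -0.05 (-0.13 to 0.02) for Stfa3.

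**Figure D1:**
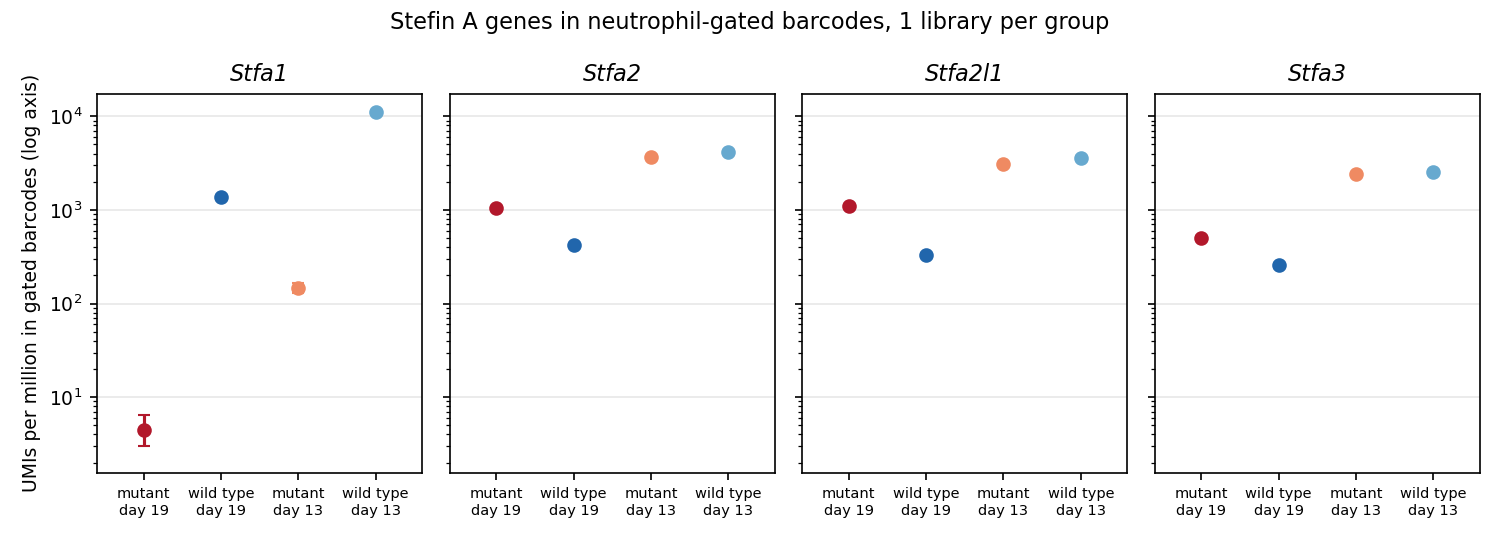
CPM of each stefin A gene in neutrophil-gated barcodes (log axis), 1 library per group, with exact Poisson 95% intervals that cover counting error only and are smaller than many points. Stfa1 sits at 4.50 and 146 CPM in the mutant libraries, against 1359 and 11246 CPM in the wild-type libraries, while the other 3 genes are lower at day 19 than at day 13 in both genotypes.

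The difference in Stfa1 was also seen in the share of barcodes with a UMI. After thinning each gated barcode to 1000 UMIs, Stfa1 was detected in 0.759% of mutant and 29.9% of wild-type neutrophils at day 19, and in 1.99% of mutant and 68.9% of wild-type neutrophils at day 13. Without thinning it was detected in 1.76% of mutant and 39.9% of wild-type neutrophils at day 19, and in 3.13% of mutant and 70.9% of wild-type neutrophils at day 13. B cells, which should lack the gene, gave thinned shares of 0 of 1890 barcodes in the mutant and 0.377% in the wild type at day 19, and 0.217% in the mutant and 0.977% in the wild type at day 13. At 3 counts of 1890, the count of 0 allows a share of up to 0.159%, and its exact 95% upper bound is 0.195%. Median depth was 2765 UMIs in mutant and 4461.5 in wild-type neutrophils at day 19 and 2410.5 in mutant and 2015.5 in wild-type neutrophils at day 13, against 2008 to 2472 UMIs in B cells. Stfa2 was detected in 31.0% of mutant and 13.4% of wild-type neutrophils at day 19 and in 63.7% of mutant and 68.1% of wild-type neutrophils at day 13 on the same thinned scale.

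Among gated barcodes with 10 or more UMIs of 4 neighbours summed (Stfa2, Stfa2l1, BC100530 and Gm5483), Stfa1 was at 0 in 914 of 940 (97.2%) in the mutant and 57 of 188 (30.3%) in the wild type at day 19. At day 13 it was at 0 in 405 of 421 (96.2%) in the mutant and 34 of 223 (15.2%) in the wild type. With 20 or more neighbour UMIs the counts at 0 were 657 of 682 in the mutant and 30 of 126 in the wild type at day 19, and 359 of 374 in the mutant and 22 of 202 in the wild type at day 13. The wild-type libraries therefore also held neutrophils with abundant neighbour transcripts and no Stfa1 UMI. Among wild-type barcodes with 10 or more neighbour UMIs but no Stfa1, 2010005H15Rik, the gene beside Stfa1, was at 29.6 CPM at day 19 and 25.3 CPM at day 13, against 328 CPM at day 19 and 2266 CPM at day 13 in those with 3 or more Stfa1 UMIs. BC100530 was at 2794 CPM at day 19 and 10321 CPM at day 13 without Stfa1, against 9072 CPM at day 19 and 20857 CPM at day 13 with it.

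In the mutant at day 19 no barcode had more than 2 Stfa1 UMIs. In the mutant at day 13, 280 of the 292 UMIs (95.9%) lay in 4 barcodes, with 151, 106, 15 and 8 UMIs. Of these barcodes 3 were in the middle and 1 in the late range defined below, and none was a barcode of another library. The barcodes with 106 and 8 also held 15 and 3 UMIs of 2010005H15Rik, which are all 18 of that gene in the gated cells of that library. The other 508 gated barcodes of that library held 12 Stfa1 UMIs in all. Without the 4 barcodes, a step chosen after seeing the data, the day 13 log2 ratio was -10.86 in place of -6.26.

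**Figure D2:**
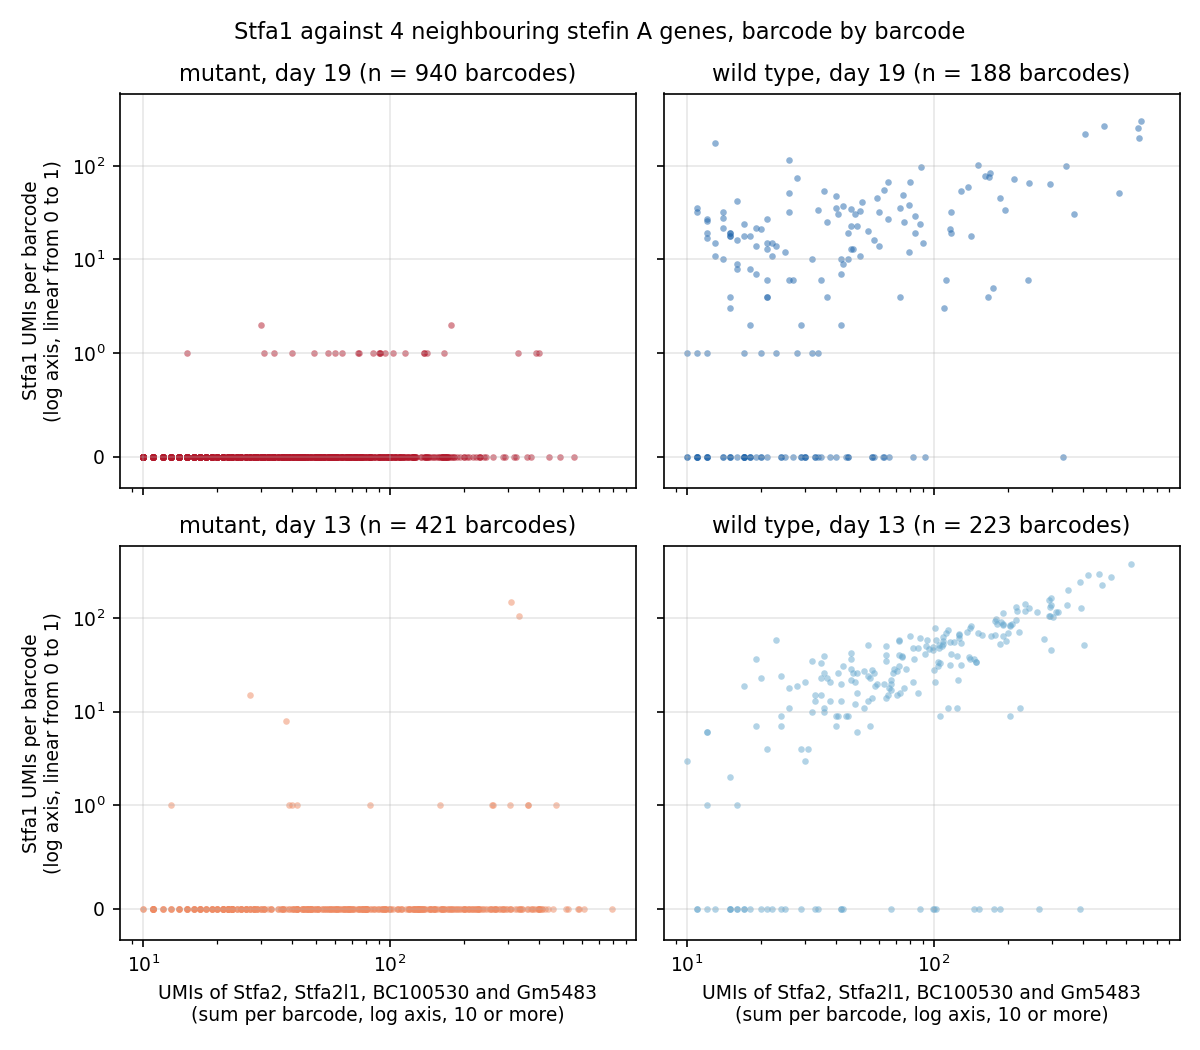
Stfa1 UMIs per gated barcode (log axis, linear below 1) against the summed UMIs of Stfa2, Stfa2l1, BC100530 and Gm5483 (log axis), for barcodes with 10 or more of that sum. In the mutant panels on the left, 914 of 940 and 405 of 421 barcodes lie at 0, and the 4 high points of mutant day 13 stand alone. In the wild-type panels 57 of 188 and 34 of 223 barcodes lie at 0.

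Among the neighbours of Stfa1, the counted gene beside it had a like difference and the others did not. Of 45 genes annotated between the outermost members or within 200000 bases of them, 20 were among the features and 16 had 30 or more UMIs in the gated cells. 2010005H15Rik (chr16:36221468-36257444, plus strand), the counted gene next to Stfa1 on its left, had 0 UMIs in the mutant and 252 in the wild type at day 19, and 18 in the mutant and 1175 in the wild type at day 13. It was at least 139-fold lower at day 19, with the mutant set to a floor of 3 counts, and 145-fold lower at day 13. The other cystatin genes between the members were higher in the mutant at day 19 and lower at day 13. Gm5416 was at 51.5 CPM in the mutant and 13.6 CPM in the wild type at day 19, and at 187 CPM in the mutant and 322 CPM in the wild type at day 13. BC117090 was at 19.1 CPM in the mutant and 5.70 CPM in the wild type at day 19, and at 57.2 CPM in the mutant and 93.2 CPM in the wild type at day 13. BC100530 was at 3710 CPM in the mutant and 1944 CPM in the wild type at day 19, and at 12288 CPM in the mutant and 13446 CPM in the wild type at day 13. Gm5483 was at 1851 CPM in the mutant and 700 CPM in the wild type at day 19, and at 5417 CPM in the mutant and 6924 CPM in the wild type at day 13.

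**Figure D3:**
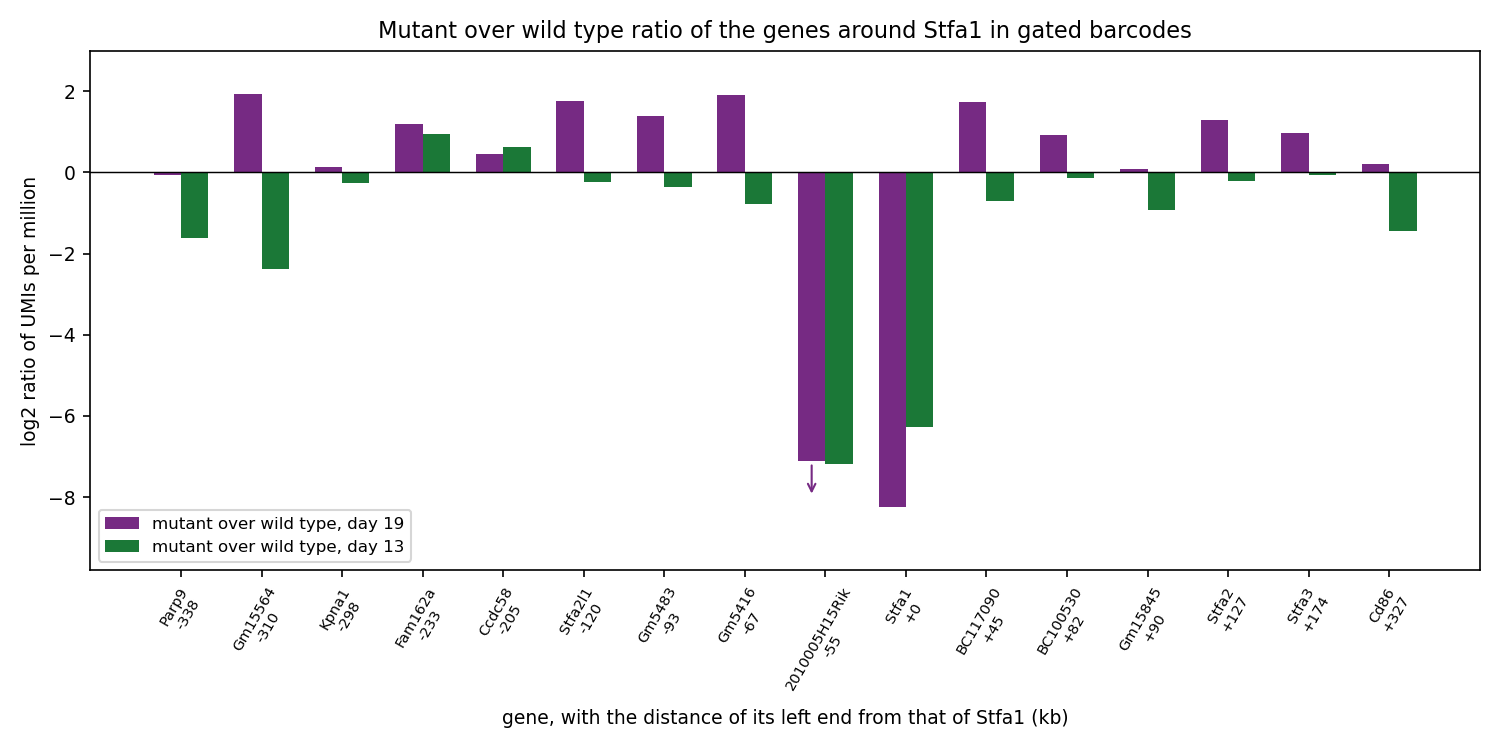
Log2 ratio of mutant to wild type CPM in gated barcodes for the 16 genes of the locus with 30 or more UMIs, in genome order with the distance from Stfa1 in kilobases. Purple bars are day 19 and green bars day 13, with 1 library per group. The adjacent pair 2010005H15Rik and Stfa1 lies at -8.24 to -6.26, with the arrow marking a bound set by a count of 0, while its neighbours lie between -2.37 and 1.94.

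The copies are close in sequence, which limits how they can be counted. Over all columns of a global alignment, gaps included, the longest coding transcript of Stfa1 was 96.8% identical to that of BC100530. Its identity to the other members was 54.2% to 61.9% on this measure, which counts gaps from unequal length as differences. These transcripts had 617 bases for Stfa1 and 619 for BC100530, against 471 for Stfa2, 419 for Stfa2l1 and 412 for Stfa3. Cut into windows of 90 bases, the 2 annotated coding transcripts of Stfa1 shared 8.53% and 18.5% of the windows in their last 300 bases with BC100530 and with no other gene. For 2010005H15Rik 21.3% to 22.0% of these windows also occurred in Gm5483. Stfa2 shared 3.79% of them with Stfa2l1, and Stfa3 shared 0 of 211. For BC100530 41.7% of these windows also occurred in BC117090 or Stfa1, and BC117090 shared 23.2% of its own with BC100530. Reads from shared windows cannot be told apart by gene, so values of Stfa1, BC100530 and BC117090 are uncertain to the extent of these shares. Summed over both genes, the level was 3715 CPM in the mutant and 3302 CPM in the wild type at day 19, and 12434 CPM in the mutant and 24691 CPM in the wild type at day 13. The summed log2 ratio was 0.17 (0.14 to 0.20) at day 19 and -0.99 (-1.02 to -0.96) at day 13. BC100530 alone had a log2 ratio of 0.93 (0.90 to 0.97) at day 19 and -0.13 (-0.16 to -0.10) at day 13.

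Some genes whose level or allele is known to differ between inbred strains were read beside these values. In all barcodes outside the neutrophil gate, Apobec3, an antiviral deaminase gene, was at 5.42 CPM in the mutant and 97.9 CPM in the wild type at day 19, and at 4.81 CPM in the mutant and 11.05 CPM in the wild type at day 13. Wdfy1, an endosomal adaptor gene, was at 19.7 CPM in the mutant and 4.23 CPM in the wild type at day 19, and at 22.3 CPM in the mutant and 16.3 CPM in the wild type at day 13. Outside the gate the wild-type day 19 library thus stood apart from the other 3 in both genes. In gated barcodes Apobec3 was at 2.70 CPM in the mutant and 19.3 CPM in the wild type at day 19. At day 13 it was at 3.01 CPM in the mutant and 12.2 CPM in the wild type, so both wild-type libraries lay above both mutant libraries. Gated Wdfy1 was at 29.6 CPM in the mutant and 12.1 CPM in the wild type at day 19, and at 28.1 CPM in the mutant and 31.1 CPM in the wild type at day 13. Outside the gate Glo1 was at 69.6 to 77.8 CPM and Nnt at 0.80 to 1.56 CPM over the 4 libraries, and Ifi202b had at most 1 UMI in each. H2-Ea and H2-Ea-ps had no row among the features. Xist was at 0.34 CPM or less outside the gate in each library and Ddx3y at 52.8 CPM or more, so no sex difference between the libraries was seen in these genes.

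Some genes on other chromosomes were also split by genotype in gated barcodes, with both mutant libraries below both wild-type libraries. All of them were picked for their values in these libraries, Trim12a and Gm34084 for being most like Stfa1 over the sums described below and Trim12c and Oasl2 after their values were seen, so the split is a description. Trim12a on chromosome 7 had 1 gated UMI in the mutant and 116 in the wild type at day 19, and 3 in the mutant and 26 in the wild type at day 13. Outside the gate it had 6 UMIs in the mutant and 721 in the wild type at day 19, and 12 in the mutant and 180 in the wild type at day 13. Gm34084 on chromosome 13 had 0 gated UMIs in the mutant and 308 in the wild type at day 19, and 4 in the mutant and 30 in the wild type at day 13. Trim12c on chromosome 7 and Oasl2 on chromosome 5 had 1 to 3 gated UMIs in each mutant library and 11 to 96 in each wild-type library. Outside the gate Trim12c was at 0.49 CPM in the mutant and 12.1 CPM in the wild type at day 19. At day 13 it was at 0.39 CPM in the mutant and 2.61 CPM in the wild type. Oasl2 differed less outside the gate, at 0.46 CPM in the mutant and 2.80 CPM in the wild type at day 19. At day 13 Oasl2 was there at 0.57 CPM in the mutant and 1.18 CPM in the wild type. Of wild-type day 13 barcodes with 10 or more neighbour UMIs, the 34 without Stfa1 held 118784 UMIs. Trim12a, Trim12c and Gm34084 had 1 UMI each among these, and Oasl2 had 0. The 186 with 3 or more Stfa1 UMIs held 517281, with 21 of Trim12a, 22 of Trim12c, 27 of Gm34084 and 9 of Oasl2. The intervals of the levels overlapped for each gene at day 13. At day 19 all 4 genes were present in wild-type barcodes without Stfa1. Trim12a was at 26.7 CPM without Stfa1 and 47.5 CPM with it, Trim12c at 20.7 CPM without and 28.8 CPM with it, Gm34084 at 65.2 CPM without and 99.2 CPM with it, and Oasl2 at 11.9 CPM without and 14.4 CPM with it, with overlapping intervals for each gene. Apobec3 was at 41.5 CPM without Stfa1 and 7.19 CPM with it at day 19, and at 8.42 CPM (1 UMI) without and 11.6 CPM with it at day 13. Strain and copy number were not measured here. UMI counts cannot tell apart a gene that is missing, a gene that is silent and an allele whose reads do not match the reference.

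The age of the mice played no part in the choice of members, and all 4 were lower at day 19 than at day 13 in both genotypes. In the mutant the log2 ratio of day 19 to day 13 was -5.02 for Stfa1, -1.81 for Stfa2, -1.47 for Stfa2l1 and -2.26 for Stfa3. The Stfa1 value in the mutant rests on the 4 barcodes named above: without them Stfa1 was at 4.50 CPM at day 19 and 6.05 CPM at day 13 in the mutant, a log2 ratio of -0.43 (-1.43 to 0.67). In the wild type the ratio of day 19 to day 13 was -3.05 for Stfa1, -3.32 for Stfa2, -3.46 for Stfa2l1 and -3.30 for Stfa3. At least a 2-fold lower level in both genotypes was found for all 4 members and for 2.02% of genes tested, and at least a 4-fold lower level for Stfa1 and Stfa3 and for 0.166% of genes. Stfa1 met neither rule without the 4 barcodes. The median log2 ratio over all genes tested was -0.10 in the mutant and -0.14 in the wild type, against -2.04 in the mutant and -3.31 in the wild type over the 4 members. The ages differ between libraries that also differ in other ways, and with 1 library per group age and library cannot be told apart.

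Whether the members passed a test of age across all genes depended on the tool and the filters, and none did in edgeR at the gate and filters used above. The edgeR quasi-likelihood test with genotype as a covariate and 1 residual degree of freedom called 0 genes higher (0%) and 1 gene lower (0.0104%) at day 19 among 9647, with 805 at an unadjusted p below 0.05, and DESeq2 called 2 higher and 10 lower. The called gene was 2010005H15Rik, with a log2 change of -4.50 (SE 0.46, edgeR adjusted p = 0.0330), and all 18 of its mutant UMIs lay in 2 of the 4 barcodes above. The edgeR log2 changes of the members were -3.81 (SE 0.48) for Stfa1, -2.46 (SE 0.40) for Stfa2, -2.36 (SE 0.46) for Stfa2l1 and -2.67 (SE 0.34) for Stfa3. The edgeR adjusted p was 0.0693 for Stfa1, 0.142 for Stfa2, 0.196 for Stfa2l1 and 0.0693 for Stfa3. Without the 4 barcodes Stfa1 was at -2.03 (SE 0.54, edgeR adjusted p = 0.304) and Stfa3 at -2.67 (SE 0.34, edgeR adjusted p = 0.0363). These calls depend on the gate and the filters: all 4 members passed with a gate at 100 or at 1000 per 10000, with a minimum of 1000 genes, with at most 15% mitochondrial UMIs, or without a filter on low counts. DESeq2 called 3 of the 4 members lower, with adjusted p-values of 0.0113 for Stfa1, 3.64e-07 for Stfa2 and 8.33e-11 for Stfa3, while Stfa2l1 had an adjusted p of 0.912. None passed without barcodes that also pass another gate, without the genotype term or in edgeR with DESeq2 size factors.

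The level was also lower at day 19 within the middle and late maturation ranges of the neutrophils. Ranges were set by granule genes: early with Elane, Mpo, Prtn3 and Ctsg at 20 or more per 10000 UMIs, middle for the other barcodes with Ltf, Camp and Ngp at 100 or more, and late for the rest. The late range held 50% of gated barcodes in the mutant and 38.4% in the wild type at day 19, and 58.6% in the mutant and 63.3% in the wild type at day 13. Within the middle range, Stfa2 was at 740 CPM in the mutant and 297 CPM in the wild type at day 19, and at 3654 CPM in the mutant and 3284 CPM in the wild type at day 13. Within the late range Stfa2 was at 1877 CPM in the mutant and 1311 CPM in the wild type at day 19, and at 4320 CPM in the mutant and 6054 CPM in the wild type at day 13. Stfa1 in wild-type cells was at 3035 CPM at day 19 and 16147 CPM at day 13 in the late range, and at 1222 CPM at day 19 and 8665 CPM at day 13 in the middle range. Stfa1 differed by genotype within ranges too, with log2 ratios of mutant to wild type of -7.70 at day 19 and -4.97 at day 13 in the middle range, and of -9.85 at day 19 and -9.90 at day 13 in the late range. Fitted on the late range alone, a choice made after seeing the data, edgeR gave log2 changes with age of -2.20 for Stfa1, -1.54 for Stfa2, -1.62 for Stfa2l1 and -1.62 for Stfa3, with edgeR adjusted p-values of 5.85e-05 or less. On the middle range alone, added in the same way, it gave -2.80 for Stfa2 (adjusted p = 0.0182), -2.51 for Stfa2l1 (adjusted p = 0.0452) and -2.99 for Stfa3 (adjusted p = 0.0120), while Stfa1 at -3.90 did not pass (adjusted p = 0.112).

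All 4 members rose between the early and the middle range in the fit over the 4 libraries. With the library as a block over 12 sums (4 libraries by 3 ranges), the edgeR log2 change was 3.13 (SE 0.57, adjusted p = 3.75e-05) for Stfa1, 4.60 (SE 0.45, adjusted p = 1.37e-09) for Stfa2, 4.51 (SE 0.48, adjusted p = 8.57e-09) for Stfa2l1 and 5.20 (SE 0.44, adjusted p = 1.06e-10) for Stfa3. The test called 2375 of 7342 genes higher (32.3%) and 1685 lower (23%) in the middle range. The early sums rest on few barcodes, with 59 in the mutant and 51 in the wild type at day 19, and 11 in the mutant and 3 in the wild type at day 13. Stfa2 in the mutant at day 19 was at 740 CPM in the middle and 52.6 CPM in the early range, and in the wild type at 297 CPM in the middle and 73.3 CPM in the early range. Stfa1 was already at 430 CPM in early wild-type barcodes at day 19 and at 3953 CPM in the 3 early wild-type barcodes at day 13, and had 0 UMIs in early mutant barcodes of both ages.

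Between the middle and the late range no member passed the edgeR test with all gated barcodes, which called 758 genes higher (10.3%) and 667 lower (9.08%). The edgeR log2 changes were -0.50 (SE 0.50, adjusted p = 0.532) for Stfa1, 0.75 (SE 0.35, adjusted p = 0.137) for Stfa2, 0.79 (SE 0.37, adjusted p = 0.139) for Stfa2l1 and -0.65 (SE 0.33, adjusted p = 0.171) for Stfa3. Stfa2 and Stfa2l1 were higher in late than in middle barcodes in each of the 4 libraries. Stfa3 was lower in late barcodes at day 13, at 1738 CPM in the mutant and 1703 CPM in the wild type against 3383 CPM in the mutant and 3214 CPM in the wild type in the middle range, and slightly higher in late barcodes at day 19. Stfa1 was higher in late barcodes of both wild-type libraries, with log2 ratios of 1.31 (1.23 to 1.39) at day 19 and 0.90 (0.84 to 0.96) at day 13. In the mutant day 13 library the late over middle ratio of Stfa1 was -4.02, which rests on the 4 barcodes named above. Without those 4 barcodes the edgeR change of Stfa1 was 0.53 (adjusted p = 0.211). Without that library it was 0.58 for Stfa1 (adjusted p = 0.252), 1.16 for Stfa2 (adjusted p = 0.0207) and 1.18 for Stfa2l1 (adjusted p = 0.0213). With a gate at 1000 per 10000 Stfa2 was at 1.46 (edgeR adjusted p = 0.000802) and Stfa2l1 at 1.44 (edgeR adjusted p = 0.00158), and without barcodes that pass another gate Stfa2 was at 0.94 (edgeR adjusted p = 0.0153) and Stfa2l1 at 0.95 (edgeR adjusted p = 0.0179). Stfa3 was at -1.20 with a gate at 100 (edgeR adjusted p = 0.0170) and at -1.27 with a minimum of 1000 genes (edgeR adjusted p = 0.0134). Without a filter on low counts Stfa2 was at 0.77 (edgeR adjusted p = 9.10e-05), Stfa2l1 at 0.80 (edgeR adjusted p = 4.43e-05) and Stfa3 at -0.64 (edgeR adjusted p = 0.00335). Without the wild-type day 19 library the edgeR change was -1.47 for Stfa1 (adjusted p = 0.0300) and -0.96 for Stfa3 (adjusted p = 0.0251).

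**Figure D4:**
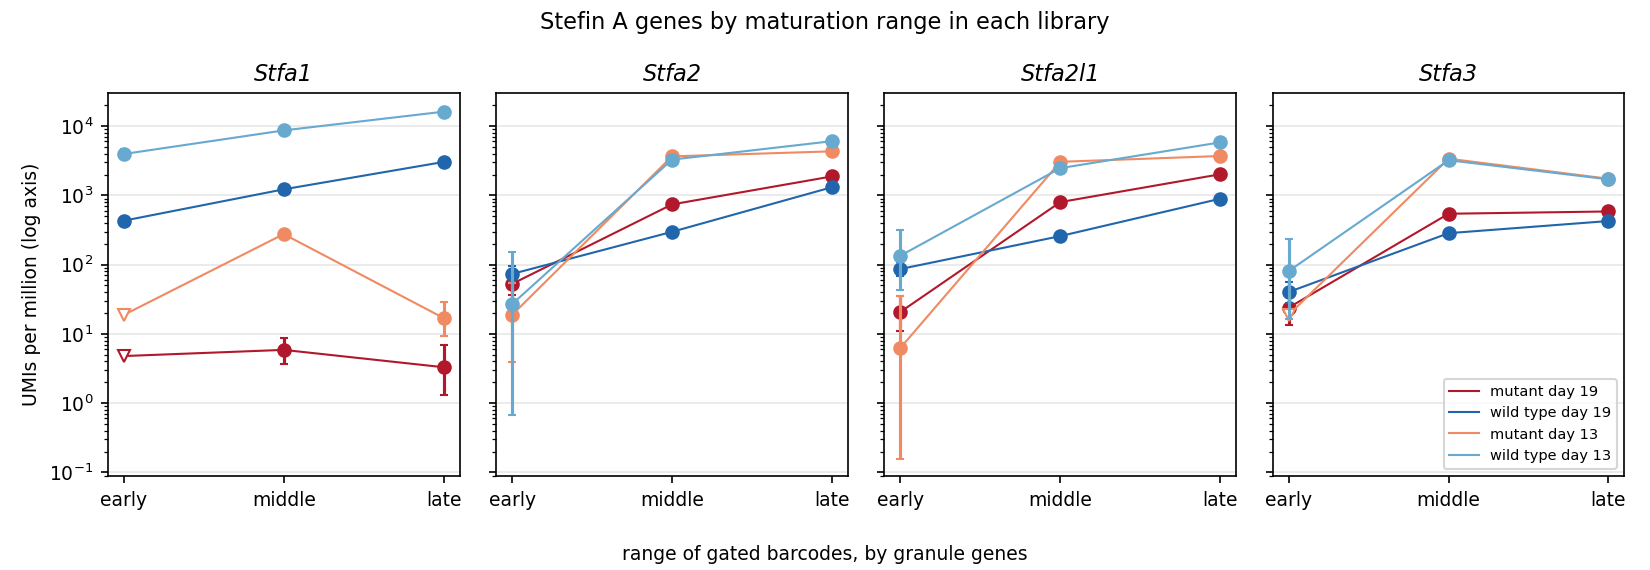
CPM of each member (log axis) in the early, middle and late ranges of gated barcodes, 1 line per library, with exact Poisson 95% intervals. Open triangles mark a count of 0, drawn at the floor of 3 counts. Stfa2, Stfa2l1 and Stfa3 climb steeply from early to middle in all 4 libraries, and Stfa1 is separated by genotype in every range.

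Genes of cysteine proteases and of other cystatins were read in the same fits. The protease list held 11 genes, which were cysteine cathepsins and Lgmn, the gene of legumain, which is not a cathepsin. Of these, 10 were tested with age and none passed, with a median log2 change of -0.40 against -0.02 over all genes tested. Between early and middle, 6 of 9 tested genes of this list rose, Lgmn among them, and 1 fell. Of all genes tested, 32.3% rose and 23% fell. The median log2 change was 1.72 for the list and 0.20 over all genes. The gene for cathepsin S, Ctss, rose by a log2 change of 3.24 (edgeR adjusted p = 1.50e-05), and Ctsl by 2.31 (edgeR adjusted p = 6.49e-08), while Ctsz was at -1.15 (edgeR adjusted p = 1.88e-04). Of 17 names of other cystatins 10 were features and 8 were tested, and 7 of these rose and 1 fell between early and middle, with the same shares over all genes. Those that rose were 2010005H15Rik, BC100530, BC117090, Gm5416 and Gm5483, which lie between the outermost members, and Cstb and Cst3 from elsewhere. Cstb, which encodes stefin B, rose by 0.86 (edgeR adjusted p = 0.0137), and Cst3, which encodes the secreted cystatin C, by 0.94 (edgeR adjusted p = 0.00256). Cst7, which encodes cystatin F, an inhibitor of lysosomal cathepsins in immune cells, fell by 6.45 (edgeR adjusted p = 2.47e-12). Between middle and late, Ctsk and Ctsz rose among the cathepsins and Gm5416 among the cystatins, by 2.03 for the last (edgeR adjusted p = 1.07e-06). Of 16 late neutrophil genes, 16 rose between early and middle, and 9 rose and 4 fell between middle and late, where 10.3% of all genes rose and 9.08% fell.

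Outside the gate the members were scarce. Stfa1 was at 0.015 CPM in the mutant and 3.84 CPM in the wild type at day 19, and at 0.984 CPM in the mutant and 15.5 CPM in the wild type at day 13, over all other barcodes with 500 or more genes. Per 1000 UMIs of S100a8 and S100a9, Stfa1 in chondrocyte-gated barcodes had 0 in the mutant and 8.0 in the wild type at day 19, and 1.34 in the mutant and 144 in the wild type at day 13. Neutrophil-gated barcodes had 0.020 in the mutant and 5.77 in the wild type at day 19, and 0.741 in the mutant and 56.1 in the wild type at day 13. The ratio in chondrocyte-gated barcodes was thus above that of neutrophils in the wild type at both ages and in the mutant at day 13. In wild-type day 13 chondrocyte-gated barcodes it was 37.2 for Stfa2, 51.0 for Stfa2l1 and 9.92 for Stfa3. Neutrophils of that library had 20.8 for Stfa2, 18.0 for Stfa2l1 and 12.6 for Stfa3. The higher ratio of Stfa1 was not particular to the chondrocyte gate, since over all wild-type day 13 barcodes outside the neutrophil gate it was 176. Most wild-type Stfa1 UMIs outside the gate at day 13 lay in few barcodes: 793 of the 1091 were in 41 barcodes with 5 or more, and 35 of those 41 had S100a8 and S100a9 at 30 or more per 10000. In the mutant at day 13, 54 of the 71 lay in 1 barcode. Monocyte-gated barcodes held Stfa1 at 0 CPM of 280 barcodes in the mutant and 64.0 CPM of 143 in the wild type at day 19, and at 2.65 CPM of 105 in the mutant and 399 CPM of 78 in the wild type at day 13. In neutrophil precursors outside the gate Stfa1 had 0 UMIs in 72 mutant and 23 in 55 wild-type barcodes at day 19, and 0 in 12 mutant and 7 in 6 wild-type barcodes at day 13. In wild-type monocytes at day 19, 43 of the 79 Stfa1 UMIs lay in 1 barcode.

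Over the 12 sums, the genes whose log2(CPM + 1) was most like that of Stfa1 among 4323 genes were Trim12a (Pearson r = 0.95), Gm34084 (0.90), Arid3a (0.90), Spi1, which encodes PU.1 (0.85) and Arpc3 (0.84). The sums share libraries, and Stfa1 was chosen for the genotype difference that sets much of its spread, so these values are a description with no test. Its r was 0.33 with Stfa2, 0.47 with Stfa2l1 and 0.50 with Stfa3. Stfa2 was most like Gm5483 (0.97), BC117090 (0.96), Ppp1r3b (0.96), Gm42418 (0.96) and Sdc3 (0.96). Stfa2l1 was most like Gm5483 (0.99), Stfa3 (0.96), Utrn (0.96), Stfa2 (0.95) and Abtb1 (0.95).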

How the data were processed

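Single-cell RNA libraries from 4 samples, 1 per genotype and age, were used. The authors deposited unnormalized counts of UMIs for each barcode, written by Cell Ranger 3.1.0, per the file headers. The submitters' processing notes name mm10 and, with no role, Seurat 3. Where the series text and the sample labels differ on age and genotype, the labels were used. The members, lists and tests were chosen with earlier results of these data known, and thresholds of the gates for other cell classes were set after the counts were opened.

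Counts of gated barcodes were summed per library and per range and given as CPM, relative to their own total. Age was tested with edgeR 4.0.16 (R 4.3.3, limma 3.58.1): quasi-likelihood test, TMM, filterByExpr, genotype as covariate, Benjamini-Hochberg adjustment at 0.05 over all genes tested. Ranges used the same test with library as a block. DESeq2 1.42.0 was an alternative. Both fits were tested on simulated data. Intervals are exact (Poisson, conditional binomial or Clopper-Pearson) at 95%. Ratios with a count of 0 use a floor of 3 counts per library. Other classes were barcodes that passed exactly 1 of the marker gates. Of the features, 30934 matched GENCODE M21. Identities are shares of identical bases over all columns of global alignments, gaps included (Biopython 1.88). Read length assignable to each copy is not modelled, and 90-base windows were a choice made here. Doublets were not removed: Scrublet in scanpy 1.11.5 called 0 of 7429 barcodes in the mutant day 13 library and 0 of 7241 in the wild-type day 19 library and was not used. Named genes are the members, every gene of the locus, the fixed lists and the 5 genes most like Stfa1, Stfa2 and Stfa2l1, among genes with 50 CPM or more in at least 1 sum. Trim12c and Oasl2 fall outside this rule and were named after their values were seen.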

Additional observations from a re-analysis of the deposited data

Results flagged for a closer look

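Over all gated barcodes, Stfa2 and Stfa2l1 differed between mutant and wild type in opposite directions at the 2 ages. Stfa2 had a log2 ratio of 1.31 at day 19 and -0.20 at day 13, and Stfa2l1 had 1.76 at day 19 and -0.23 at day 13. Within the middle range the day 13 ratio had the same direction as at day 19. It was 0.15 (0.07 to 0.24) for Stfa2 and 0.30 (0.21 to 0.40) for Stfa2l1. Within the late range the day 13 ratio was -0.49 for Stfa2 and -0.65 for Stfa2l1. Each ratio compares 1 library with 1 library, and the difference between the ages was not tested. The wild-type day 19 library, which also stood apart in Ltf and, outside the gate, in Apobec3, enters both day 19 values.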

How the results depend on the processing

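No paired analysis was possible because each group is 1 library and the labels give no replicate numbers. The count of genes called between day 19 and day 13 with edgeR (0 higher, 1 lower) became 22 higher and 21 lower with at most 15% mitochondrial UMIs, 29 and 41 with a gate at 100 per 10000, 9 and 11 with a gate at 1000, 23 and 32 with a minimum of 1000 genes, 84 and 86 without a filter on low counts, and 2 and 10 with DESeq2. It was 3 lower with a minimum of 200 genes, 0 lower without barcodes that pass another gate, and 0 lower with age alone. These settings were added after seeing the data: 6 lower in the middle range, 77 higher and 33 lower in the late range, and 1 higher and 2 lower without the 4 mutant day 13 barcodes of highest Stfa1. Over all of these settings the edgeR and DESeq2 adjusted p of Stfa1 ran from 9.46e-16 to 0.883.

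Genes higher in late than in middle barcodes (758) became 1210 with a gate at 100, 1237 with a gate at 1000, 1220 with the middle boundary at 200, 1180 with DESeq2 size factors and 333 without the library block. Genes lower (667) became 423 without the block. With wild-type libraries alone, added later, 333 were higher and 236 lower. Leaving out 1 library gave 384 to 870 higher and 389 to 652 lower, with the lowest counts without wild-type day 19 and without mutant day 19. For middle over early, leaving out 1 library gave 871 to 1980 genes lower, against 1685, with the lowest without mutant day 19. All 4 members kept their rise there in every setting, except that Stfa1 at 2.18 did not pass without the block (edgeR adjusted p = 0.369).

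Some log2 values changed sign. Stfa1 late over middle was 0.14 with a gate at 1000, 0.74 without the library block and 0.53 without the 4 barcodes, and ran from -1.47 to 0.58 when 1 library was left out. Fits added later gave -3.65 in mutant libraries alone (edgeR adjusted p = 3.70e-07) and 0.95 in wild-type libraries alone (edgeR adjusted p = 0.0432). Stfa3 late over middle was 0.050 with a gate at 1000. With a minimum of 1000 genes, Stfa2 late over middle was -0.13, Stfa2l1 was -0.30, and Stfa2 mutant over wild type at day 13 was 0.060. The cause was not tested.

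Stfa1 mutant over wild type at day 19 was -9.00 with equal weight for the 3 ranges. At day 13 it was -5.98 with a gate at 1000, -9.11 with a minimum of 1000 genes, -6.04 without barcodes that pass another gate, -6.62 with equal weight and -10.86 without the 4 barcodes. The alternative without called doublets was not run. With 1 library per group, counting depth sets the intervals and differences between mice are not in them.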
